A study of Rattus norvegicus with 8 samples.

Results

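Genes of excitatory neuron identity and of vesicle and membrane trafficking were examined in the rat habenula after chronic restraint. The 6 genes were Neurod1, Slc17a7, Nrgn, Syt6, Sytl2 and Synj2, each read by 1 probe set, out of 379 probe sets in the deposited table and 283 with a single gene symbol. They were chosen from that table by gene function, and the table itself holds probe sets picked by its authors for a difference between these same arrays. The differences between groups below are therefore descriptions and carry no p-value.

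The stressed group was 4 male Sprague-Dawley rats (rats 7, 8, 10 and 12) held in plastic film restrainers for 2 hours a day over 14 days. The non-stress group was 4 male Sprague-Dawley rats (rats 1, 3, 4 and 5) that stayed in the home cage. Habenula RNA from each rat was hybridised to 1 Affymetrix whole-transcript array, and all values are log2 intensities. Neither the age of the rats nor the time between the last restraint and dissection is given in the labels. Array medians over the table lay between 8.60 and 8.77. Of 21 medial habenula markers, 10 were in the table, and levels of markers outside it are not known here.

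The habenula is a small epithalamic structure that passes forebrain signals to midbrain monoamine centres, and most of its neurons release glutamate. Neurons of its medial part also release acetylcholine. A glutamatergic terminal loads its vesicles through a vesicular glutamate transporter, fuses them with the membrane under the control of calcium-sensing C2-domain proteins, and recovers the membrane through endocytosis, in which inositol phospholipid phosphatases shed the protein coat. NeuroD1 is a basic helix-loop-helix transcription factor of neuronal differentiation, and proteins of that class bind the E-box.

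The promoter windows of 4 of the 5 genes that were lower in stressed rats are shown because E-boxes are the elements that Neurod1-class factors bind. Each window runs from 250 bases before to 50 bases after the annotated start in RefSeq (GRCr8), printed 5′ to 3′ on the gene's strand, with every E-box (CANNTG, which reads the same on both strands) in capitals.
Neurod1, chr3:84770405-84770704, minus strand: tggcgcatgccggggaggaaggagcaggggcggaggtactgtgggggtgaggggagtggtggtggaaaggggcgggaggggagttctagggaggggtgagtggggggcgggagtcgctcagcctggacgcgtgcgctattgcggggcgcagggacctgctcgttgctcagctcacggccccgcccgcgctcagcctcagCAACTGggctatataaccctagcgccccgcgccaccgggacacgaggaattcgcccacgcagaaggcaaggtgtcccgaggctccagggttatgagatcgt
Slc17a7, chr1:104785955-104786254, plus strand: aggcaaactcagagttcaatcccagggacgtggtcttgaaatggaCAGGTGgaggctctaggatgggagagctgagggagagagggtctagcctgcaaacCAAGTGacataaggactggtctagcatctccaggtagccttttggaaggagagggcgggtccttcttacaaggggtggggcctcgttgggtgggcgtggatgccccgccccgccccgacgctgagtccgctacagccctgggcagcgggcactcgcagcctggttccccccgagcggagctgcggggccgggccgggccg
Nrgn, chr8:45452368-45452667, minus strand: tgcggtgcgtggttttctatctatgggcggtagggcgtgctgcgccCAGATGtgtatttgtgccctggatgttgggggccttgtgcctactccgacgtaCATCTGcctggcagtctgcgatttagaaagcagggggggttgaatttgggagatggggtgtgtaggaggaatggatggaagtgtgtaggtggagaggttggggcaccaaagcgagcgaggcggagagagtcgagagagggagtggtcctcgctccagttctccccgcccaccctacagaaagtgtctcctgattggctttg
Syt6, chr2:193781226-193781525, plus strand: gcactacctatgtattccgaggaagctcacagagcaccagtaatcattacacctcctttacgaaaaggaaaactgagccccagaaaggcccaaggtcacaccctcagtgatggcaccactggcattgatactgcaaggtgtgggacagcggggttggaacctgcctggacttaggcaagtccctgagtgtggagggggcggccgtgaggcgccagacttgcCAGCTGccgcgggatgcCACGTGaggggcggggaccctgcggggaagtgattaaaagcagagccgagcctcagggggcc

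Windows were matched for 5 of the 6 genes. Neurod1 had 1 E-box, with its first base at position -51 from the start, and Slc17a7 had 2. Nrgn had 2, and both were of the form CAGATG or its reverse complement CATCTG, which is the E-box form that NeuroD-type factors prefer. Syt6 had 2, beginning at positions -29 and -12, and each of the 2 overlapping windows of Synj2 had 1. E-boxes were present in 72.1% of 33469 rat promoter windows of the same length, and CAGATG, which is counted among them, in 16.6% on either strand. The GC box GGGCGG was found in the windows of all 5 genes, with 4 matches in Neurod1, against 33.1% of all windows. The half-sites TGACG of the cAMP response element and AGAACA of the glucocorticoid response element were in none of the 5 genes' windows, against 21.2% and 20.7% of all windows. The windows of the 5 genes held 57.7% to 72.7% GC, against a median of 51.7% over all windows. The shares over all windows were not matched for GC. A match of letters is a description of the window and does not show binding.

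Levels of 5 of the 6 genes were lower in stressed rats and that of Synj2 was higher. The 4 stressed and 4 non-stress values did not overlap for any of the 6, which was also true of 83.4% of the table. Of the table, 46.4% were lower with groups that did not overlap and 36.9% were higher with groups that did not overlap. All 6 also passed limma's adjusted threshold of 0.05, as did 100% of the table, a consequence of how the table was chosen. In bulk tissue, fewer cells of a type and less RNA per cell cannot be told apart.

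The transcription factor gene Neurod1 (probe set 10846685) had log2 levels of 9.94, 9.99, 10.04 and 10.10 in stressed rats 7, 8, 10 and 12, against 10.56, 10.83, 10.24 and 10.37 in non-stress rats 1, 3, 4 and 5. The highest stressed rat lay 0.14 below the lowest non-stress rat. Neurod1 averaged 10.02 ± 0.07 in stressed and 10.50 ± 0.26 in non-stress rats (SD, n = 4 each), a log2 difference of -0.48 ± 0.11 (limma SE), or 0.716 times the non-stress level. It was number 25 by size among the 210 lower probe sets.

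Slc17a7 (probe set 10706734) encodes the vesicular glutamate transporter VGLUT1, which fills synaptic vesicles with glutamate and is expressed in the medial habenula and widely in cortex and hippocampus. Its levels were 10.92, 10.90, 10.96 and 10.95 in stressed rats 7, 8, 10 and 12, against 11.25, 11.42, 11.11 and 11.21 in non-stress rats 1, 3, 4 and 5. The stressed rats were tightly grouped and all lay below the non-stress rats. The means were 10.93 ± 0.03 in stressed and 11.25 ± 0.13 in non-stress rats (SD, n = 4 each), and the log2 difference was -0.31 ± 0.08, or 0.804 times the non-stress level.

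Nrgn (probe set 10916228) encodes neurogranin, a postsynaptic protein that binds calmodulin and is abundant in forebrain excitatory neurons. Its levels were 10.51, 10.72, 10.65 and 10.60 in stressed rats 7, 8, 10 and 12, against 10.84, 11.15, 10.75 and 10.88 in non-stress rats 1, 3, 4 and 5. The groups were separated by 0.03, the narrowest gap of the 6 genes, between stressed rat 8 and non-stress rat 4. Nrgn averaged 10.62 ± 0.09 in stressed and 10.90 ± 0.17 in non-stress rats (SD, n = 4 each). The log2 difference of -0.28 ± 0.09 was the smallest in size of the 6. It lay close to the lower limit of the table, whose smallest absolute difference was 0.26, and ranked 177 of 210 lower probe sets.

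Syt6 (probe set 10818010) is a member of the synaptotagmin family, whose C2 domains link membranes during vesicle fusion. Its levels were 10.07, 9.98, 9.82 and 10.02 in stressed rats 7, 8, 10 and 12, against 10.68, 10.81, 10.25 and 10.43 in non-stress rats 1, 3, 4 and 5. Both groups were spread out, but the gap of 0.18 between them was the widest of the 6 genes. Syt6 averaged 9.98 ± 0.11 in stressed and 10.54 ± 0.25 in non-stress rats (SD, n = 4 each). The log2 difference was -0.57 ± 0.11, or 0.675 times the non-stress level, the largest in size of the 6 and number 13 of 210 lower probe sets.

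Sytl2 (probe set 10708591) encodes a synaptotagmin-like protein that binds Rab27 and the plasma membrane in the docking of secretory vesicles. Its levels were 10.61, 10.58, 10.61 and 10.62 in stressed rats 7, 8, 10 and 12, against 10.99, 11.14, 10.76 and 10.83 in non-stress rats 1, 3, 4 and 5. The 4 stressed rats spanned 0.04 and the 4 non-stress rats 0.38. Sytl2 averaged 10.61 ± 0.02 in stressed and 10.93 ± 0.17 in non-stress rats (SD, n = 4 each). The log2 difference was -0.32 ± 0.09, or 0.799 times the non-stress level, and ranked 127 of 210.

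Synj2 (probe set 10702829) encodes synaptojanin 2, an inositol phospholipid phosphatase of membrane trafficking. Its levels were 8.08, 7.88, 8.01 and 7.997 in stressed rats 7, 8, 10 and 12, against 7.59, 7.85, 7.63 and 7.71 in non-stress rats 1, 3, 4 and 5. The groups were separated by 0.03, between stressed rat 8 and non-stress rat 3. Synj2 averaged 7.99 ± 0.09 in stressed and 7.69 ± 0.11 in non-stress rats (SD, n = 4 each), a log2 difference of 0.30 ± 0.08, or 1.23 times the non-stress level. It ranked 108 of 169 higher probe sets.

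**Figure D1:**
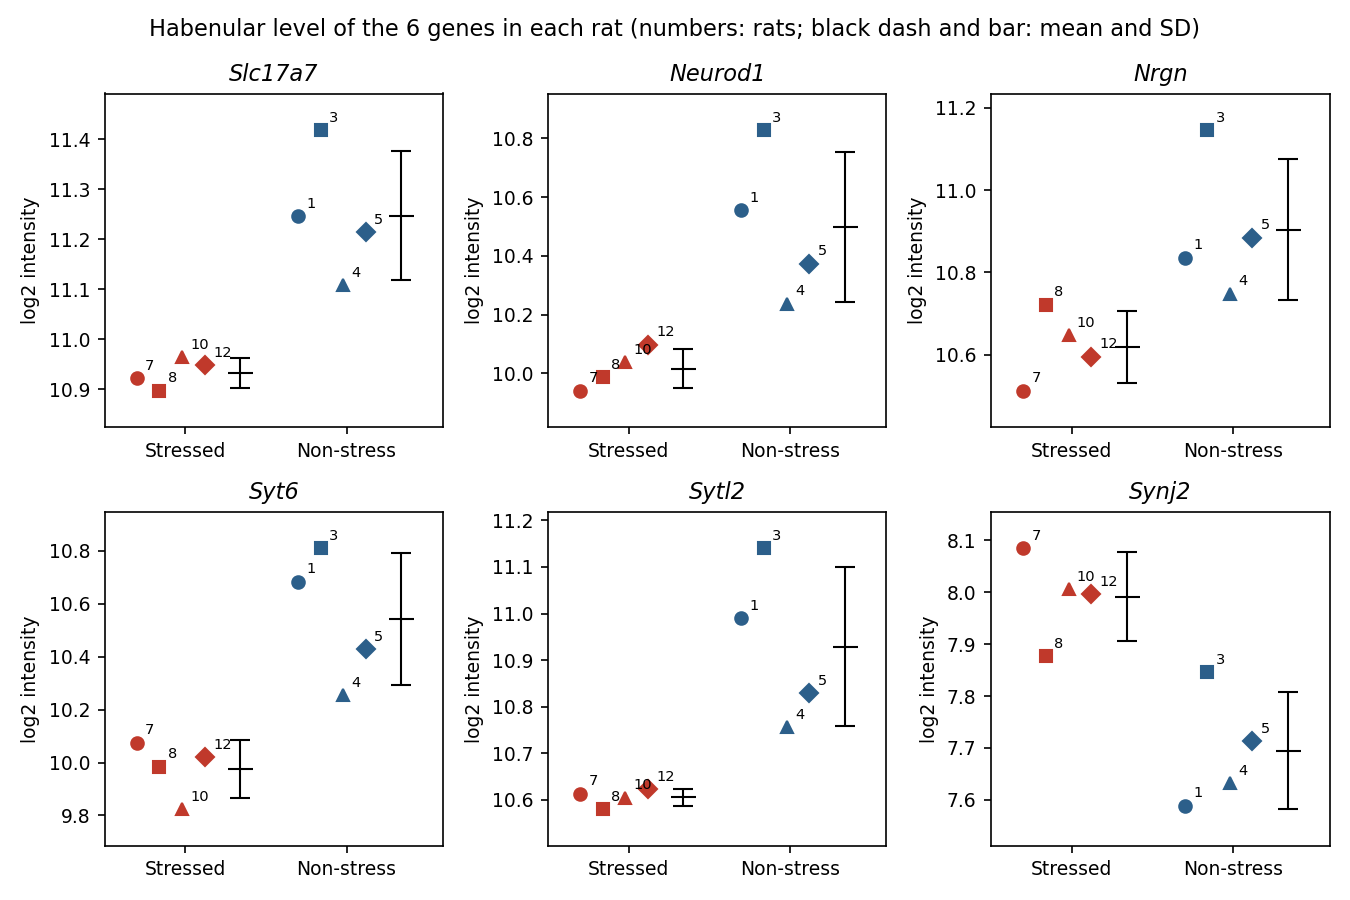
Log2 intensity of the 6 genes (vertical axes) in each stressed and non-stress rat, with rat numbers beside the points and the mean and SD over 4 rats in black. Synj2 is the gene with stressed rats above non-stress rats, and non-stress rat 3 is the highest of its group in all 6 panels.

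The median log2 difference was -0.32 over the 6 genes and -0.28 over the table, of which 55.4% were lower in stressed rats. Among the lower probe sets the median was -0.34, and among the higher ones 0.32. Neurod1 and Syt6 thus lay beyond the median of the lower probe sets, Slc17a7, Nrgn and Sytl2 short of it, and Synj2 short of that of the higher ones. Quantile normalization of the table moved the table's median difference to -0.17. It left differences of -0.07 ± 0.08 for both Nrgn and Sytl2 and ended their separation between groups, while the other 4 genes stayed separated. With each array centred on its median, only Nrgn lost the separation, at a difference of -0.24 ± 0.09. Both scalings were run on the selected probe sets alone, more of them lower than higher. Equalizing arrays over such a set can move a group difference by construction.

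**Figure D2:**
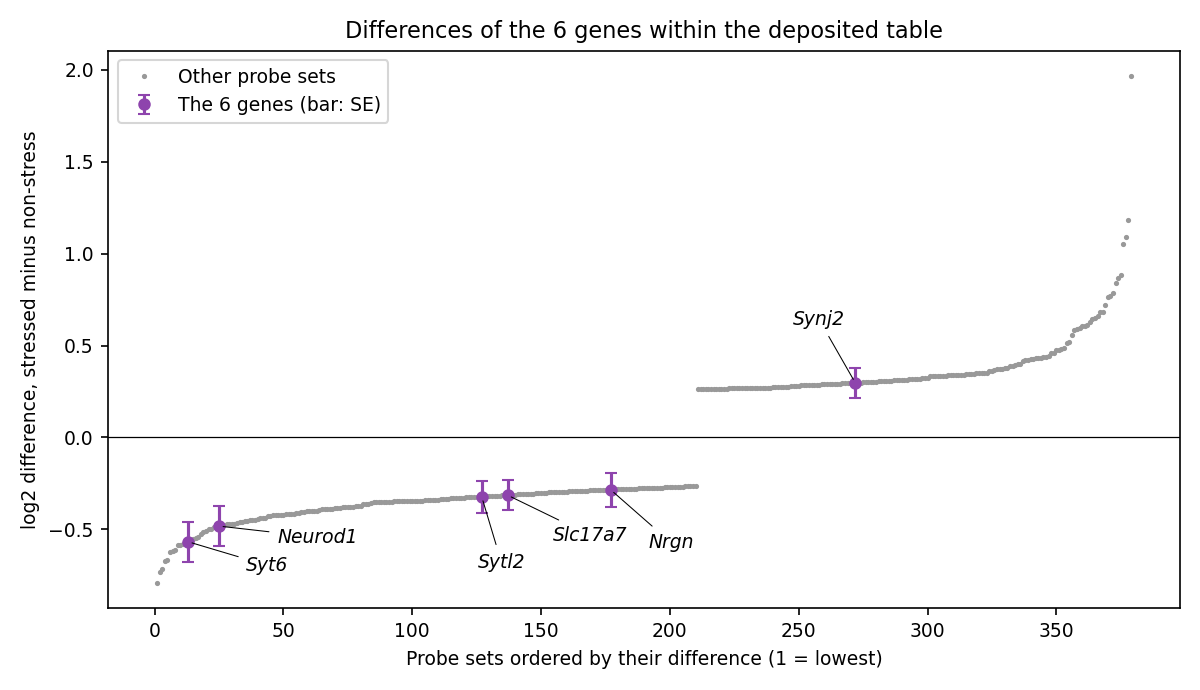
All 379 probe sets ordered along the horizontal axis by their log2 difference, stressed minus non-stress (vertical axis), with the 6 genes marked and bars showing limma's standard error. Syt6 (-0.57) and Neurod1 (-0.48) lie near the lower end and the other 4 lie between the ends and the empty band around 0 that the choice of the table left.

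Other genes of the same pathways were taken from lists chosen with earlier results of these data known, and a gene missing from the table is not shown to be unchanged. Of 25 synaptotagmins and related proteins, 4 were in the table and all 4 were lower: Syt6, Sytl2, Syt10 (-0.33 ± 0.09) and Syt15 (-0.27 ± 0.09). Syt10, a calcium sensor for regulated secretion in neurons, had levels of 10.79, 10.76, 10.70 and 10.75 in stressed rats 7, 8, 10 and 12, against 11.06, 11.34, 10.92 and 10.98 in non-stress rats 1, 3, 4 and 5. As in Sytl2, the stressed rats lay close together and non-stress rat 3 was highest. Of 49 genes of the release machinery, 2 were in the table and both were lower. The synaptic vesicle membrane gene Synpr, which encodes synaptoporin, differed by -0.43 ± 0.08 (10.44 ± 0.09 in stressed and 10.87 ± 0.10 in non-stress rats). The vesicle glycoprotein gene Sv2c differed by -0.39 ± 0.11 (8.61 ± 0.12 in stressed and 9.003 ± 0.23 in non-stress rats).

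Of 45 glutamatergic synapse genes, only Slc17a7 and Nrgn were in the table. Of 22 genes of NeuroD and related helix-loop-helix factors, only Neurod1 was. Synj2 was alone among 40 genes of endocytosis and inositol phosphatases. Of 28 Rab proteins and effectors, the 1 in the table, the Rab5 exchange factor gene Rin3, was higher, by 0.43 ± 0.08, with levels of 8.42, 8.21, 8.36 and 8.42 in stressed rats 7, 8, 10 and 12, against 7.89, 7.95, 7.91 and 7.94 in non-stress rats 1, 3, 4 and 5. Rin3 thus went the same way as Synj2, and its groups did not overlap.

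Slc17a7, Neurod1 and Nrgn also mark hippocampal and dentate neurons. Of 30 such markers 4 were in the table, the fourth being Ddn, which encodes the dendritic protein dendrin. Ddn was higher in stressed rats, by 0.29 ± 0.09 (9.09 ± 0.11 in stressed and 8.80 ± 0.16 in non-stress rats), and its groups overlapped. All 10 medial habenula markers in the table were lower, and their mean lay at 9.91 to 9.97 in stressed rats and 10.24 to 10.73 in non-stress rats. Of 16 thalamic markers 1 was in the table and was higher, of 11 lateral habenula markers 1 was higher and 1 lower, of 10 microglial markers 1 was higher and 1 lower, and of 10 endothelial markers 1 was higher and 2 were lower. Of 10 markers each, 0 of oligodendrocytes and 0 of astrocytes were in the table. The part of tissue composition in the differences was not tested.

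The spread within groups was uneven. For all 6 genes the SD was larger among non-stress than among stressed rats, as it was for 77.1% of the lower probe sets, 56.2% of the higher ones and 67.8% of the table. Non-stress SDs were 9.38 times the stressed SD for Sytl2, 4.34 times for Slc17a7, 3.79 times for Neurod1, 2.32 times for Syt6, 1.95 times for Nrgn and 1.32 times for Synj2. The median ratio was 1.76 over the lower probe sets and 1.45 over the table. No test is given, since the p-values that chose the table depend on these spreads. Without non-stress rat 3 the SD was larger among non-stress rats for 4 of the 6 genes, and Nrgn and Synj2 turned the other way.

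**Figure D3:**
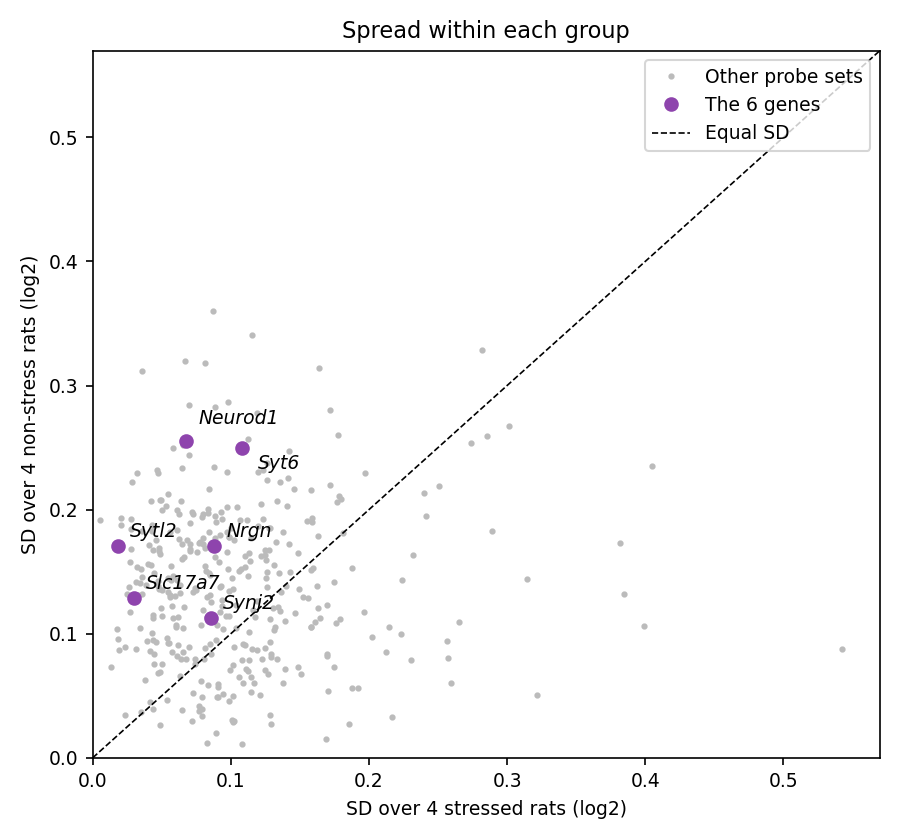
SD over 4 stressed rats (horizontal axis) against SD over 4 non-stress rats (vertical axis), both in log2 units, for every probe set of the table, with the 6 genes marked. All 6 lie above the dashed line of equal SD, Sytl2 with an SD of 0.02 in stressed and 0.17 in non-stress rats.

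Non-stress rats 3 and 4 carried most of this spread in the 5 lower genes but not in Synj2. Rat 3 was the highest of its group in all 6 genes. The same held for 62.9% of the lower probe sets, 16.0% of the higher ones and 42.0% of the table. Rat 4 was the lowest in 5 of the 6 (Synj2 was lowest in rat 1) and in 51.4% of the lower probe sets. In Neurod1, rat 3 lay 0.33 above and rat 4 0.26 below the non-stress mean. These 2 rats held 92.9% of the summed squared deviations from the group means in Slc17a7, 84.5% in Neurod1, 83.5% in Sytl2, 74.6% in Nrgn, 69.4% in Syt6 and 44.2% in Synj2. In the mean of the medial habenula markers the same rats were the highest and lowest of the group, at deviations of 0.28 and -0.21. The median of the array deviated by 0.09 in rat 3 and -0.03 in rat 4.

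Deviations of the array median were set against those of the genes over the 8 rats, a comparison added after the values were seen, and r was positive for all 6. Its r was 0.883 with Sytl2 (exact permutation p = 0.0260; rho = 0.905, p = 0.0208), 0.862 with Neurod1 (exact permutation p = 0.0469; rho = 0.833, p = 0.0590) and 0.826 with Slc17a7 (exact permutation p = 0.0764; rho = 0.762, p = 0.0694). It was 0.740 with Syt6 (exact permutation p = 0.115; rho = 0.738, p = 0.122), 0.612 with Synj2 (exact permutation p = 0.182; rho = 0.333, p = 0.472) and 0.503 with Nrgn (exact permutation p = 0.368; rho = 0.095, p = 0.868). With the medial habenula marker mean r was 0.881 (exact permutation p = 0.0382; rho = 0.810, p = 0.101). After adjustment over these 7 relations 0 passed, and the smallest adjusted p in the exact permutation tests was 0.109. The 2 arrays with the most distant medians were those of non-stress rats 3 and 5. With both left out r was 0.668 with Sytl2 (exact permutation p = 0.0208, the smallest possible with 6 rats, not adjusted). It was 0.736 with Slc17a7, 0.660 with Neurod1 and 0.520 with Syt6 (exact permutation p = 0.146, 0.250 and 0.396). For Synj2, Nrgn and the marker mean it was 0.508, -0.39 and 0.634 (exact permutation p = 0.354, 0.521 and 0.271). The array median is taken over the selected probe sets, so it is not a measure independent of them, and its part in the pattern was not tested beyond the values from arrays centred on their medians.

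**Figure D4:**
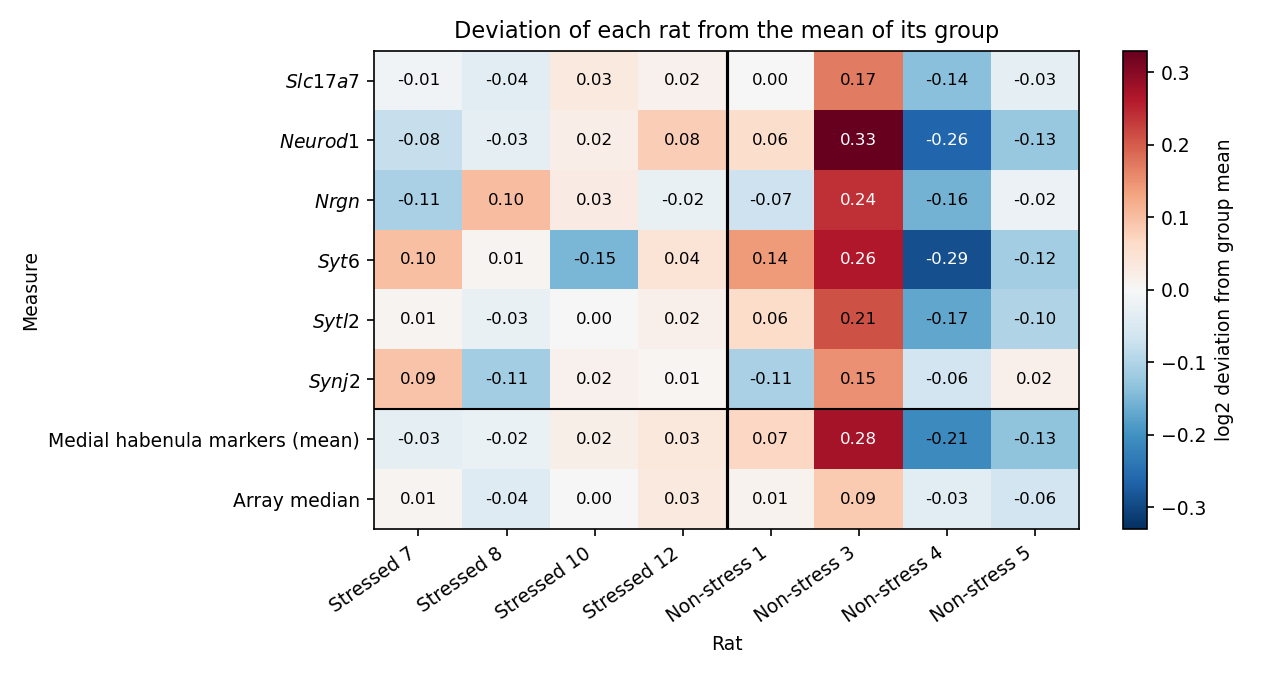
Deviation of each rat (columns, stressed rats on the left) from its group mean in log2 units, for the 6 genes, the mean of 10 medial habenula markers and the median of the array (rows). Red cells are above and blue cells below the group mean, and the strongest colours are in non-stress rats 3 and 4, up to 0.33 in Neurod1.

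Covariation from rat to rat was measured on deviations from the group means over the 8 rats, which leaves the difference between groups out, and rats were permuted within their groups. All 15 pairs of the 6 genes had a positive Pearson's r, with a median of 0.777. That median was 0.148 after quantile normalization, 0.586 with arrays centred on their medians and 0.306 without non-stress rat 3. The 10 pairs of the 5 lower genes had r from 0.553 to 0.968 and a median of 0.818, where pairs of all lower probe sets had a median of 0.395 and pairs over the whole table a median of 0.060. The closest pair was Neurod1 and Sytl2 (r = 0.968, exact permutation p = 0.0156; Spearman's rho = 0.905, exact permutation p = 0.0521). Next came Slc17a7 and Neurod1 (r = 0.961, exact permutation p = 0.00868, rho = 0.857, exact permutation p = 0.0226), Slc17a7 and Sytl2 (r = 0.944, exact permutation p = 0.00694, rho = 0.810, exact permutation p = 0.0417) and Syt6 and Sytl2 (r = 0.906, exact permutation p = 0.0399, rho = 0.905, exact permutation p = 0.0521). These were the 4 pairs with an unadjusted p under 0.05. After Benjamini-Hochberg adjustment over the 15 pairs 0 passed by either coefficient in 2-sided exact permutation tests, and the smallest adjusted p was 0.0651. For both pairs that had it, the adjusted p in exact permutation tests ran from 0.0694 to 0.998 over the alternatives. The series matrix, which holds the same values, is not counted in that range.

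For each of the 5 lower genes, non-stress rats 3 and 4 lay farthest from the median. In Synj2, stressed rat 8 (deviation -0.11) lay farther out than non-stress rat 4 (-0.06). Non-stress rats 3 and 4 were left out of every pair all the same. Without them r was 0.787 for Neurod1 and Sytl2 (exact permutation p = 0.354), 0.694 for Slc17a7 and Neurod1 (exact permutation p = 0.188), 0.551 for Slc17a7 and Sytl2 (exact permutation p = 0.167) and 0.716 for Syt6 and Sytl2 (exact permutation p = 0.396). Over the 15 pairs it then ran from -0.68, for Nrgn and Synj2, to 0.787, with 9 pairs below 0 and 0 with an exact permutation p under 0.05. Pairs among Neurod1, Sytl2 and Slc17a7, and Syt6 with Sytl2, kept a positive r without those 2 rats. So did Neurod1 with Syt6 (r = 0.347) and Slc17a7 with Synj2 (r = 0.169). All pairs with Nrgn, the other pairs with Synj2, and Slc17a7 with Syt6 (r = -0.098) were below 0. The 6 remaining rats allow 48 orders, so these p-values say little about the size of r. Synj2, the gene higher in stressed rats, had r from 0.389 with Nrgn to 0.670 with Slc17a7 over all 8 rats, with exact permutation p-values of 0.460 and 0.141.

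**Figure D5:**
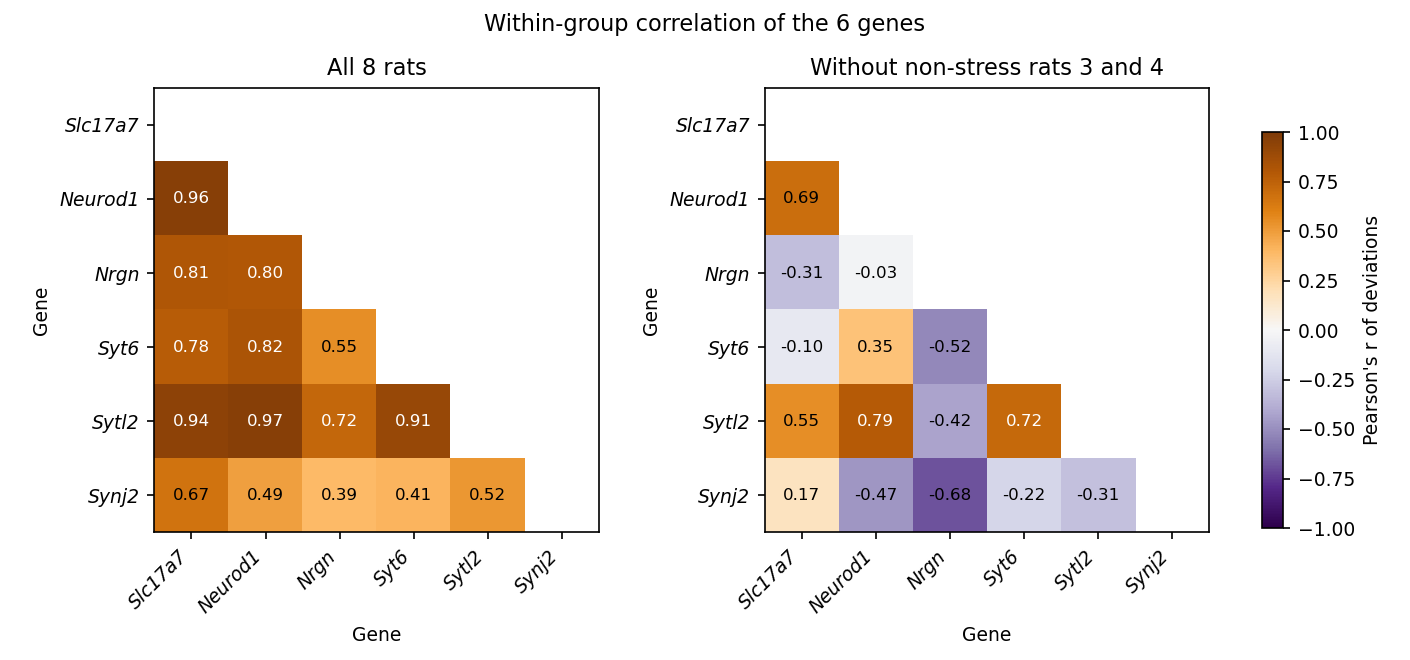
Pearson's r of deviations from group means for the 15 pairs of genes (both axes), over all 8 rats on the left and without non-stress rats 3 and 4 on the right. All 15 values on the left are positive, and 9 on the right are below 0.

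Each gene was also set against the mean of the 10 medial habenula markers in the table, none of which is among the 6. Neurod1 had the smallest p-value of the 6, with r = 0.989 (exact permutation p = 0.00174, the smallest the design allows, adjusted over the 6 relations p = 0.0104) and rho = 0.976 (exact permutation p = 0.00347). Without non-stress rats 3 and 4 its r was 0.929 (exact permutation p = 0.0208, the smallest possible with 6 rats). Its adjusted p in exact permutation tests ran from 0.0104 to 0.0625 over 12 alternatives. It missed the threshold in 1 of them, with arrays centred on their medians (exact permutation, r = 0.981, adjusted p = 0.0625). Another of the 12, the series matrix, holds the main values again and gave the 0.0104. The lowest adjusted p of the others in exact permutation tests was 0.0208. Neurod1 also had r over 0.7 with 93 of the 209 other lower probe sets, so it moved with many lower probe sets besides these markers. The same count was 104 of 209 for Sytl2, 92 for Syt6, 90 for Slc17a7, 44 for Nrgn and 9 of 210 for Synj2.

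Sytl2 had r = 0.990 with the marker mean (exact permutation p = 0.0122, adjusted p = 0.0243; rho = 0.929, exact permutation p = 0.0799). Slc17a7 had r = 0.951 (exact permutation p = 0.00694, adjusted p = 0.0208; rho = 0.833, exact permutation p = 0.0278). Without non-stress rats 3 and 4 the values were 0.944 for Sytl2 (exact permutation p = 0.271) and 0.645 for Slc17a7 (exact permutation p = 0.146). The call on Slc17a7 was lost in exact permutation tests without any 1 of non-stress rats 1, 3, 4 and 5 (r = 0.972, 0.8286, 0.917 and 0.980, adjusted p = 0.0833, 0.344, 0.125 and 0.125). That on Sytl2 was lost without the same rats (r = 0.990, 0.971, 0.985 and 0.989, exact permutation, adjusted p = 0.0972, 0.146, 0.181 and 0.125) or stressed rat 12 (r = 0.991, adjusted p = 0.0556). The size of r thus changed little for Sytl2, and 7 rats allow only 144 orders. With arrays centred on their medians r was 0.976 for Sytl2 and 0.826 for Slc17a7 (exact permutation, adjusted p = 0.109 and 0.169). Over the 12 alternatives the adjusted p in exact permutation tests ran from 0.0208 to 0.302 for Sytl2. For Slc17a7 it ran from 0.0208, in the series matrix again, to 0.910, and the next lowest was 0.0278. Syt6 (r = 0.856, rho = 0.762), Nrgn (r = 0.772, rho = 0.524) and Synj2 (r = 0.480, rho = 0.119) did not pass in exact permutation tests (p = 0.0903, 0.102 and 0.410 for r and 0.201, 0.330 and 0.767 for rho, adjusted p = 0.123, 0.123 and 0.410 for r). Without non-stress rats 3 and 4 their r was 0.523, -0.17 and -0.48, with exact permutation p-values of 0.729, 0.562 and 0.500. Whether the genes differ from each other in this relation was not tested, and the other probe sets were not put to the same test.

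For each gene, the probe sets with the most similar deviations over the 8 rats were sought among 277 others with a single symbol, as a description. Sytl2 was closest to the nicotinic receptor subunit gene Chrnb4 (r = 0.997) and the transcription factor gene Pbx3 (r = 0.976). Slc17a7 was closest to the secreted ligand gene Wnt2 (r = 0.992) and the nicotinic subunit gene Chrna3 (r = 0.971). Neurod1 was closest to the kinase gene Map3k6 (r = 0.987) and Gfra1, which encodes a GDNF receptor (r = 0.982), and Syt6 to the somatostatin receptor gene Sstr2 (r = 0.979) and the orphan receptor gene Gpr151 (r = 0.968). These 8 neighbours were all lower in stressed rats, with differences from -0.62 ± 0.12 in Chrnb4 to -0.30 ± 0.09 in Pbx3. Chrnb4 and Chrna3 are among the medial habenula markers averaged above, so their closeness is not separate from the relation to that mean. Gpr151 is on the list of lateral habenula markers. Nrgn was closest to Kctd8, which encodes an auxiliary subunit of GABA-B receptors (r = 0.957), and to the natriuretic peptide receptor gene Npr1 (r = 0.908). For Synj2 the closest were Rtn4rl2, a Nogo receptor relative that was lower in stressed rats by a difference of -0.33 ± 0.09 (r = 0.893), and the glucose transporter gene Slc2a1, which was higher by 0.27 ± 0.08 (r = 0.880). With 8 rats and 277 candidates, a highest r of this size is selected and carries no test.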

How the data were processed

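RNA was labelled with biotin for Affymetrix whole-transcript arrays, per the labels' protocols. Each deposited value is a log2 intensity of 1 probe set. How the authors corrected background and normalized, and the genome build, is not stated in the labels or file headers. The authors' deposited table also holds a log2 difference of group means (named a fold change) and an unadjusted p-value. All its p-values are at most 0.0499 and its absolute differences at least 0.26, so its 379 probe sets were selected on these arrays. The 2 deposited tables held equal values (largest gap 0). Gene symbols came from the platform annotation: 283 probe sets had 1 symbol, 5 several and 91 none.

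Differences and standard errors came from limma 3.58.1 in R 4.3.3 on all 379 probe sets. Its spread was learned on selected probe sets, so standard errors may be too small. Correlations used deviations from group means, with 2-sided exact permutation of rats within groups (576 orders), in scipy 1.17.1. The relations with the array median were added after the values were seen. Scripts were tested on simulated data. The 6 genes, the lists, the tests and the alternatives were chosen with earlier results of these data known. All 6 genes are named, as are listed genes in the table and the 2 probe sets most alike to each gene by residual r. No batch or scan information was given; the 8 arrays limit the precision. Promoters are from RefSeq (GRCr8).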

Additional observations from a re-analysis of the deposited data

How the results depend on the processing

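Of the 6 genes, 5 had a negative difference, stressed minus non-stress, under every alternative run. The alternatives that could change this were quantile normalization, median centring, group medians and each of the 8 rats left out. The series matrix values, no moderation and no dim probe sets could not, since they leave each difference of group means as it was. After quantile normalization the differences of Nrgn (-0.066 ± 0.079) and Sytl2 (-0.071 ± 0.075) were smaller in size than their standard errors. Their direction is not resolved there. The count of genes whose groups do not overlap was 6, or 4 after quantile normalization and 5 after centring. The count with the larger non-stress SD was 4 after quantile normalization, where Syt6 and Synj2 turned, and ran from 4 to 6 with 1 rat left out. The count of pairs past the threshold was 0 throughout. With 1 rat left out there are 144 orders, and a single pair at the smallest possible p could not pass adjustment over 15 pairs. Those counts of 0 therefore say little.

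The count of genes related to the medial habenula mean was 3, against 1 after quantile normalization, 0 after median centring (r of 0.981 for Neurod1, 0.976 for Sytl2 and 0.826 for Slc17a7), 1 by Spearman's rho and 1 to 3 with 1 rat left out. The share of the table that would pass the same test was not computed. The count of 3 is therefore not shown to be particular to these genes. After quantile normalization r turned to -0.0074 for Slc17a7 and Syt6, -0.24 for Slc17a7 and Sytl2, -0.020 for Nrgn and Synj2, -0.13 for Sytl2 and Synj2, and -0.064 for Slc17a7 and the medial habenula mean. For Synj2 and that mean it was -0.0026 after median centring. The cause was not tested; both scalings were run on the selected probe sets alone. With 1 rat left out, r of Synj2 ran from -0.26 to 0.654 with Neurod1, -0.54 to 0.735 with Nrgn, -0.10 to 0.714 with Syt6, -0.15 to 0.759 with Sytl2 and -0.29 to 0.689 with the medial habenula mean, each lowest without non-stress rat 3.

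No paired analysis was possible because the groups share no rat numbers. Dixon's test at its 95% critical value found 0 single rats apart from the other 3 in 14 groups of values, which with 4 rats does not show that none lies apart. With 4 rats in each group, small differences cannot be resolved.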
